A study of Homo sapiens with 6 samples.

Results

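Aldo-keto reductases that act on steroids and aldehydes were followed in a prostate cancer cell line given a vector to overexpress the long non-coding RNA LINC01518 and in the same line given an empty vector. The 9 genes were AKR1A1, AKR1B1, AKR1B10, AKR1B15, AKR1C1, AKR1C2, AKR1C3, AKR1C4 and AKR7A2, chosen by gene symbol, and all 9 were found among the 20263 genes of the count table. RNA was sequenced from 3 libraries of overexpression cells and 3 libraries of empty vector cells, numbered 1 to 3 within each group. The labels give both groups as LNCaP, an established line of hormone-dependent prostate cancer cells, and give no further treatment, time or genotype. Whether replicate libraries were grown as separate cultures is not stated, and the spread behind each p-value may therefore be technical. The series description names another long non-coding RNA, MEG3, as the insert, while its title and the sample labels name LINC01518. The level of either insert was not analysed here.

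Aldo-keto reductases use NADPH to reduce aldehydes and ketones to alcohols. The AKR1C enzymes work mainly on steroids, where they decide how much active androgen or progesterone a cell keeps, and AKR1C3 is known for making testosterone and other active androgens inside prostate tumours. AKR1A1, AKR1B and AKR7A enzymes work mainly on reactive aldehydes, sugars and retinal, and several genes of the family are known targets of NRF2, the transcription factor of the oxidative stress response.

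The libraries held 38161544 to 42553688 counts, and they are given below as CPM (counts relative to library size) scaled by TMM, a method that equalises libraries on the bulk of their genes. Where a gene had 0 counts, a level of up to 3 counts, or 0.0703 to 0.0794 CPM depending on the library, was still possible from counting error alone. Correlations of log2 CPM across genes lay between 0.985 and 0.987 for libraries of different groups and between 0.988 and 0.990 for libraries of the same group, and replicate libraries differed by far more than counting error. The labelled cell type was checked on 15 luminal prostate markers. Among them KLK2, KLK3, KLK4, TMPRSS2, FOLH1 and TRPM8 had 0 counts in all 6 libraries, which goes against the label for these genes. The luminal list summed to 2732 to 2904 CPM in overexpression libraries and 2270 to 2542 CPM in empty vector libraries, most of it from the keratins KRT8 and KRT18. The 5 basal markers summed to 120 to 131 CPM in overexpression libraries and 123 to 157 CPM in empty vector libraries. Most of this was DST, at a mean of 120 CPM in overexpression cells and 141 CPM in empty vector cells. KRT5 and KRT14 had at most 3 counts in any library. TP63 was low but higher in overexpression cells, at a mean of 1.04 CPM against 0.370 CPM in empty vector cells. Its log2 fold change was 1.47 (edgeR adjusted p 0.103), against -0.22 for DST and -0.34 for KRT15. The 4 endothelial markers summed to 7.12 to 9.02 CPM in overexpression libraries and 8.11 to 8.65 CPM in empty vector libraries, with KDR at 0 counts. Nearly all of it was CDH5, at a mean of 7.85 CPM in overexpression cells and 8.16 CPM in empty vector cells. The 8 fibroblast markers summed to 154 to 159 CPM in overexpression libraries and 112 to 122 CPM in empty vector libraries, with LUM, PDGFRA and FAP at 0 counts. COL1A1 made up most of this sum, at a mean of 114 CPM in overexpression cells and 82.4 CPM in empty vector cells. PDGFRB followed, at 36.8 CPM in overexpression cells and 29.7 CPM in empty vector cells. COL1A2, also on this list, had at most 2 counts in any library. The 6 immune markers summed to 22.2 to 26.2 CPM in overexpression libraries and 34.7 to 36.5 CPM in empty vector libraries, with PTPRC, CD3E and LYZ at 0 counts. Nearly all of this was CD68, at a mean of 21.2 CPM in overexpression cells and 33.3 CPM in empty vector cells. Calls among the tested markers (edgeR, adjusted p below 0.05, as described below) were KRT8 higher of 8 luminal, COL1A1 and PDGFRB higher of 4 fibroblast and CD68 lower of 3 immune markers, and 0 of 3 basal and 0 of 2 endothelial markers, where DESeq2 also called 0 and where 1 basal and 0 endothelial markers had an unadjusted p below 0.05. COL1A1 and CD68 were called in 6 of the 6 fits that left out a library and in the 11 other settings tried (scalings, filters, tools, TPM and a block for the replicate number), whereas KRT8 was called in 2 of the 6, not without overexpression library 1, 2 or 3 or empty vector library 2 (adjusted p up to 0.0787), nor with the replicate number as a block (0.0683). PDGFRB was called in 0 of the 6 (adjusted p 0.0796 to 0.141) and in 5 of the 11 other settings, with a log2 fold change of -0.06 on TPM. Of all 13543 tested genes, edgeR called 5.60%. In bulk RNA, fewer cells of a type and less RNA per cell cannot be told apart, and the part of these markers in the results below was not tested.

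The AKR1C genes lie side by side on chromosome 10 (GRCh38, GENCODE release 29). AKR1C1 spans chr10:4963253-4983283 on the plus strand, AKR1C2 spans chr10:4987400-5018031 on the minus strand, AKR1C3 spans chr10:5035354-5107686 on the plus strand and AKR1C4 spans chr10:5195462-5218949 on the plus strand. Together they take up 256 kb, with 4116 bases between AKR1C1 and AKR1C2, 17322 bases between AKR1C2 and AKR1C3, and 87775 bases between AKR1C3 and AKR1C4. AKR1B1 (chr7:134442350-134459284, minus strand), AKR1B10 (chr7:134527592-134541408, plus strand) and AKR1B15 (chr7:134549136-134579875, plus strand) share a 138 kb stretch of chromosome 7. AKR1A1 (chr1:45550543-45570049, plus strand) and AKR7A2 (chr1:19303965-19312146, minus strand) lie apart on chromosome 1. All 9 are annotated as protein-coding, and none shares exonic bases with another annotated gene.

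Because the AKR1C genes are close copies, their reads are hard to tell apart. The coding sequences of AKR1C1 and AKR1C2 differed at 19 of 972 bases and were identical for up to 189 bases in a row, while AKR1C1 and AKR1C3 differed at 83 bases and AKR1C2 and AKR1C3 at 87. Coding bases 73 to 162 are shown because 10 of the 19 differences between AKR1C1 and AKR1C2 fall in these 90 bases, so that reads of the pair can be told apart there. Sequences are of the GENCODE 29 transcripts, 5′ to 3′, with positions counted from 1 at the first coding base. Capitals mark the bases at which AKR1C1 and AKR1C2 differ and, in AKR1C3, the bases that differ from AKR1C1.
AKR1C1: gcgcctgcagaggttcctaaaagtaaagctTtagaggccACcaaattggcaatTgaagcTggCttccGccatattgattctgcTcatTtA
AKR1C2: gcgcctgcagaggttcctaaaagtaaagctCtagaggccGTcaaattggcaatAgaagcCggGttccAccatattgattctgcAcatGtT
AKR1C3: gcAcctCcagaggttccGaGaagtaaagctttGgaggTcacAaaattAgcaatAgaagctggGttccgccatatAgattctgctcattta

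Read-length words were counted to measure this overlap, since the read length is not given in the sources used here. Of all 100-base words in the transcripts of AKR1C2, 23.1% also occurred in transcripts of another gene, and 22.1% occurred in those of AKR1C1. For AKR1C1 the share was 16.7%, with 16.5% in AKR1C2. AKR1C3 shared 1.75% and AKR1C4 0.313% of their 100-base words, AKR1B10 shared 1.59%, AKR1B15 0.527% and AKR7A2 0.254%, and AKR1A1 and AKR1B1 shared 0%. With 150-base words, AKR1C2 still shared 13.7% and AKR1C1 10%, whereas AKR1C3 shared 0.444%. The division of counts between AKR1C1 and AKR1C2 is therefore uncertain, and a sum over the AKR1C genes is given beside the single genes.

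The levels of the 9 genes were compared in TPM as deposited, a level scaled to transcript length, because only a value per length sets 1 gene against another. AKR1A1 averaged 278 TPM over the 6 libraries, AKR1B1 106, AKR7A2 73.4, AKR1C3 21.4, AKR1C2 15.4 and AKR1C1 3.003 TPM. AKR1B10 averaged 0.0919, AKR1C4 0.0341 and AKR1B15 0.0138 TPM. AKR1A1, AKR1B1 and AKR7A2 stood above the AKR1C genes in every library. Neighbours in this order whose ranges over all 6 libraries overlapped were AKR1C3 and AKR1C2, AKR1B10 and AKR1C4, and AKR1C4 and AKR1B15. Between the other neighbours the ranges did not overlap. Within each library AKR1C3 lay above AKR1C2. The lowest AKR1C3 and highest AKR1C2 values were 22.6 and 22.1 TPM in overexpression libraries and 14.1 and 12.1 TPM in empty vector libraries.

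**Figure D1:**
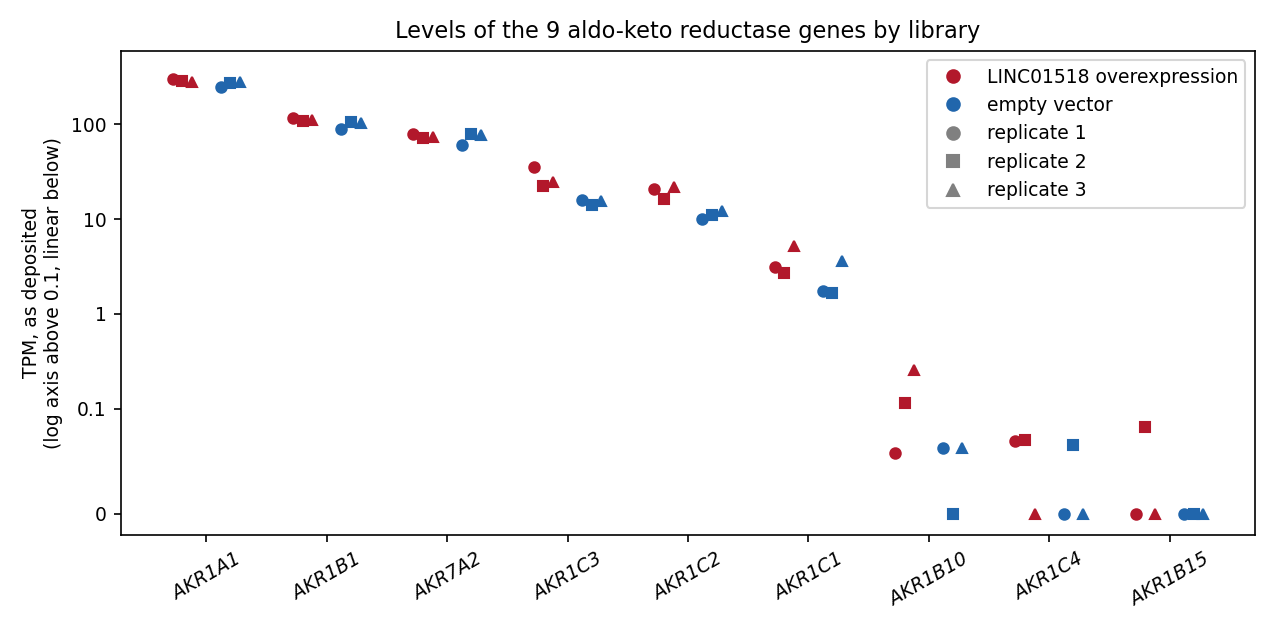
Deposited TPM of the 9 genes in each library (log axis above 0.1 TPM, linear below), overexpression libraries left of empty vector libraries for each gene, with marker shape giving the replicate number. AKR1A1, AKR1B1 and AKR7A2 form the top of the order, and AKR1B10, AKR1C4 and AKR1B15 lie near 0. In the middle, AKR1C3 and AKR1C2 overlap over all 6 libraries but not within a group.

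Differences between the groups were tested on the counts with edgeR's quasi-likelihood test over all 13543 genes with enough reads, with Benjamini-Hochberg adjustment, and a gene was called at an adjusted p below 0.05. A log2 fold change is overexpression minus empty vector, and a positive value means a higher level in overexpression cells. AKR1C1, AKR1C2 and AKR1C3 rose in overexpression cells, by 1.74-fold to 2.13-fold. Of the 9 genes, 6 had enough reads to be tested, 3 of the 6 were called higher and 0 were called lower, against a background of 3.57% of all tested genes called higher, 2.03% called lower and 5.60% called in either direction. A total of 4 of the 6 had an unadjusted p below 0.05, against 3200 of the 13543 genes. Fold changes were positive for 6 of the 6 and for 6664 of the 13543 genes. The median log2 fold change was 0.50 over the 6 and -0.0035 over all tested genes. No gene of the 6 lay near that median. AKR1C1, AKR1C2 and AKR1C3 stood at 0.80 to 1.09, and AKR1A1, AKR1B1 and AKR7A2 at 0.09 to 0.20. Library ranges of CPM did not overlap for 5 of the 6, all higher in overexpression cells, against 15.9% of all tested genes that were apart and higher in overexpression cells and 31.4% that were apart in either direction.

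AKR1C3 converts weak androgens to testosterone and makes prostaglandin F from its precursors. It was counted 1374, 817 and 870 times in overexpression libraries and 561, 532 and 547 times in empty vector libraries. In CPM these were 32.7, 20.8 and 23.0 in overexpression libraries against 13.7, 12.5 and 14.1 in empty vector libraries. The groups did not overlap, and overexpression library 1 stood above the other overexpression libraries. The mean was 25.5 ± 6.35 CPM in overexpression cells and 13.4 ± 0.853 CPM in empty vector cells (SD, n = 3 each). AKR1C3 rose 1.90-fold (95% interval 1.43 to 2.52), a log2 fold change of 0.93 ± 0.171 (SE) with an edgeR adjusted p of 0.0318. Without overexpression library 1 the log2 fold change was 0.71 with an edgeR adjusted p of 0.0275. The call was lost, at edgeR adjusted p of 0.0745, 0.103, 0.105 and 0.0805, without overexpression library 3 or empty vector library 1, 2 or 3.

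AKR1C2 turns dihydrotestosterone, the most potent androgen, into a product with little androgenic activity. Its counts were 1193, 929 and 1106 in overexpression libraries and 754, 584 and 571 in empty vector libraries. In CPM it stood at 28.4, 23.6 and 29.3 in overexpression libraries against 18.4, 13.7 and 14.7 in empty vector libraries. Every overexpression library lay above every empty vector library, with empty vector library 1 the highest of its group. The mean was 27.1 ± 3.05 CPM in overexpression cells and 15.6 ± 2.47 CPM in empty vector cells (SD, n = 3 each). AKR1C2 rose 1.74-fold (95% interval 1.41 to 2.14), a log2 fold change of 0.80 ± 0.131 (SE) with an edgeR adjusted p of 0.0180. Without overexpression library 1 or 3, or without empty vector library 2 or 3, the edgeR adjusted p was 0.0675, 0.0638, 0.0578 and 0.0589 and the call was lost, with log2 fold changes between 0.71 and 0.76.

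AKR1C1 is best known for inactivating progesterone. It was the least abundant of these 3, with 462, 284 and 366 counts in overexpression libraries and 222, 155 and 156 counts in empty vector libraries. Its CPM were 11.0, 7.22 and 9.69 in overexpression libraries against 5.42, 3.63 and 4.03 in empty vector libraries. The groups did not overlap in CPM. AKR1C1 averaged 9.30 ± 1.92 CPM in overexpression cells and 4.36 ± 0.937 CPM in empty vector cells (SD, n = 3 each), and it rose 2.13-fold (95% interval 1.54 to 2.96). The log2 fold change was 1.09 ± 0.202 (SE), with an edgeR adjusted p of 0.0280. The call was lost, at edgeR adjusted p of 0.0805, 0.0925, 0.0849 and 0.0789, without overexpression library 1 or 3 or empty vector library 2 or 3. In TPM the order of libraries differed, with 3.14, 2.67 and 5.15 in overexpression libraries against 1.74, 1.67 and 3.63 in empty vector libraries. Empty vector library 3 then lay above overexpression libraries 1 and 2, so the groups overlapped, and on log2(TPM + 0.1) AKR1C1 had a log2 fold change of 0.65 with a limma adjusted p of 0.346.

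AKR1C4, a liver enzyme of bile acid synthesis, was hardly detected. It had 3, 2 and 0 counts in overexpression libraries and 0, 2 and 0 counts in empty vector libraries. The sums were 5 counts in overexpression cells (95% Poisson interval 1.62 to 11.7) and 2 counts in empty vector cells (0.242 to 7.22), which overlap, and the gene had too few reads to be tested.

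A sum over the 4 AKR1C genes does not depend on how counted reads were divided among them. The sums were 3032, 2032 and 2342 counts in overexpression libraries and 1537, 1273 and 1274 counts in empty vector libraries. In CPM they stood at 72.2, 51.6 and 62.0 in overexpression libraries against 37.5, 29.8 and 32.9 in empty vector libraries. The groups did not overlap, and the means were 61.9 ± 10.3 CPM in overexpression cells and 33.4 ± 3.86 CPM in empty vector cells (SD, n = 3 each). With the sum in place of the single genes, the AKR1C total rose 1.85-fold (95% interval 1.48 to 2.33), a log2 fold change of 0.89 ± 0.138 (SE) with an edgeR adjusted p of 0.0191 over 13541 genes. The total kept its call without overexpression library 1 or 2 or empty vector library 1. The call was lost, at edgeR adjusted p of 0.0696, 0.0638 and 0.0683, without overexpression library 3 or empty vector library 2 or 3.

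**Figure D2:**
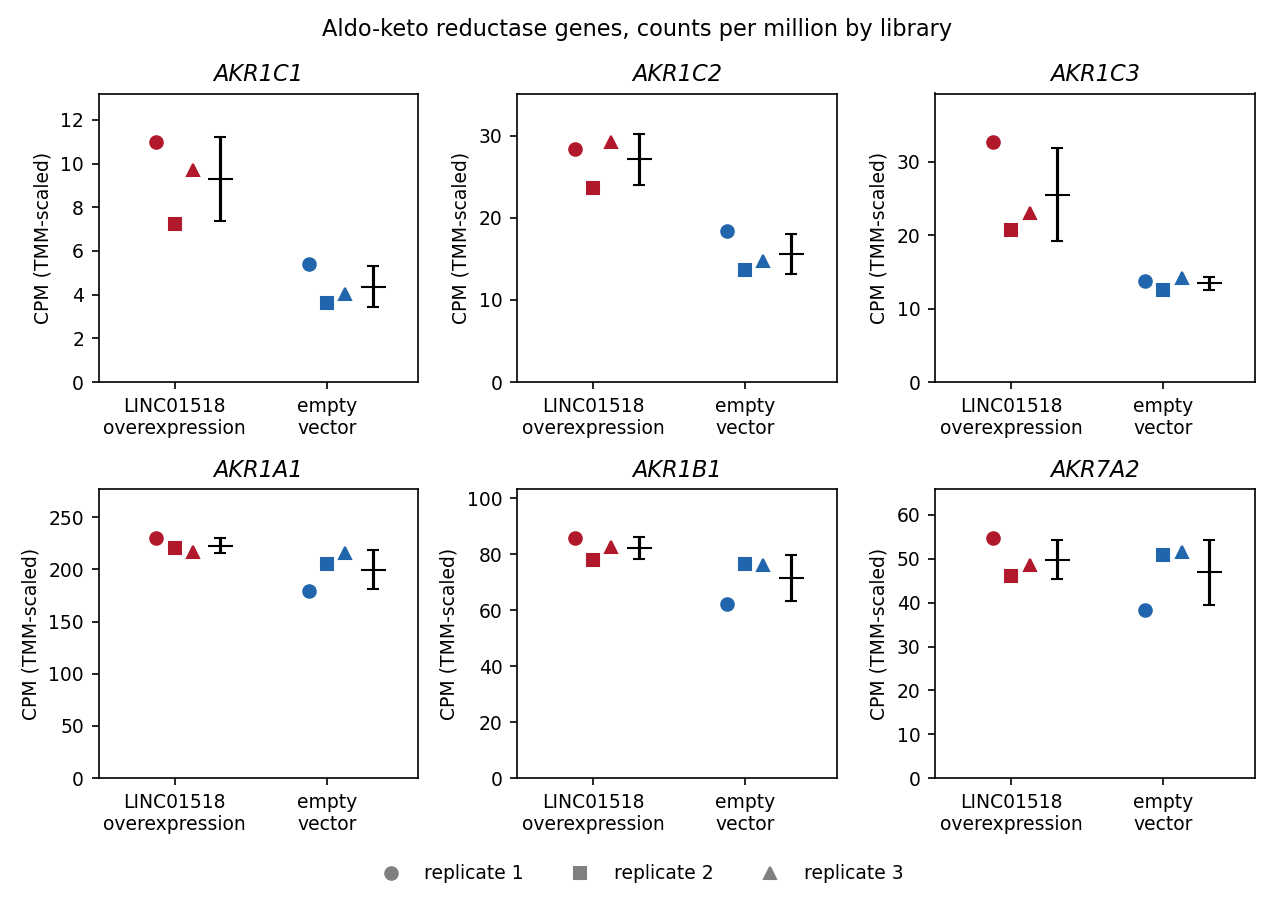
TMM-scaled CPM of the 6 tested genes in each library, overexpression on the left and empty vector on the right of each panel, with marker shape giving the replicate number and a bar giving the mean and SD of 3 libraries. AKR1C1, AKR1C2 and AKR1C3 lie wholly above their empty vector libraries, and empty vector library 1 is the lowest library for AKR1A1, AKR1B1 and AKR7A2.

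How the AKR1C counts were divided among the genes was also compared. AKR1C1 took 15.2, 14.0 and 15.6% of the AKR1C counts in overexpression libraries and 14.4, 12.2 and 12.2% in empty vector libraries. AKR1C2 took 39.3, 45.7 and 47.2% in overexpression libraries and 49.1, 45.9 and 44.8% in empty vector libraries. AKR1C3 took 45.3, 40.2 and 37.1% in overexpression libraries and 36.5, 41.8 and 42.9% in empty vector libraries. The groups overlapped for each gene. The mean share differed, as overexpression minus empty vector, by 1.99 percentage points for AKR1C1, -2.49 for AKR1C2 and 0.482 for AKR1C3. An exact two-sided permutation test over libraries gave p = 0.2, 0.5 and 0.9 for AKR1C1, AKR1C2 and AKR1C3 and adjusted p = 0.6, 0.75 and 0.9 over the 3 tests, in a design where the smallest possible p is 0.1.

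Counts and TPM were then set against each other, since a fixed length per gene would give nearly the same number of counts per TPM in libraries of like depth. For AKR1C3 there were 34.9 to 39.0 counts per TPM over the 6 libraries. For AKR1C2 there were 57.7, 56.4 and 50.1 counts per TPM in overexpression libraries and 74.6, 52.4 and 47.0 in empty vector libraries. For AKR1C1 there were 147, 106 and 71.0 counts per TPM in overexpression libraries and 127, 92.6 and 42.96 in empty vector libraries. The highest value was 3.42 times the lowest for AKR1C1, 1.59 times for AKR1C2 and 1.12 times for AKR1C3. Among 10880 genes with at least 150 counts in every library, the median of this ratio was 1.13 and the 95th percentile 1.51, and 99.9% of these genes lay below AKR1C1, 96.3% below AKR1C2 and 38.2% below AKR1C3. The source of the difference between the deposited counts and TPM of AKR1C1 was not tested.

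**Figure D3:**
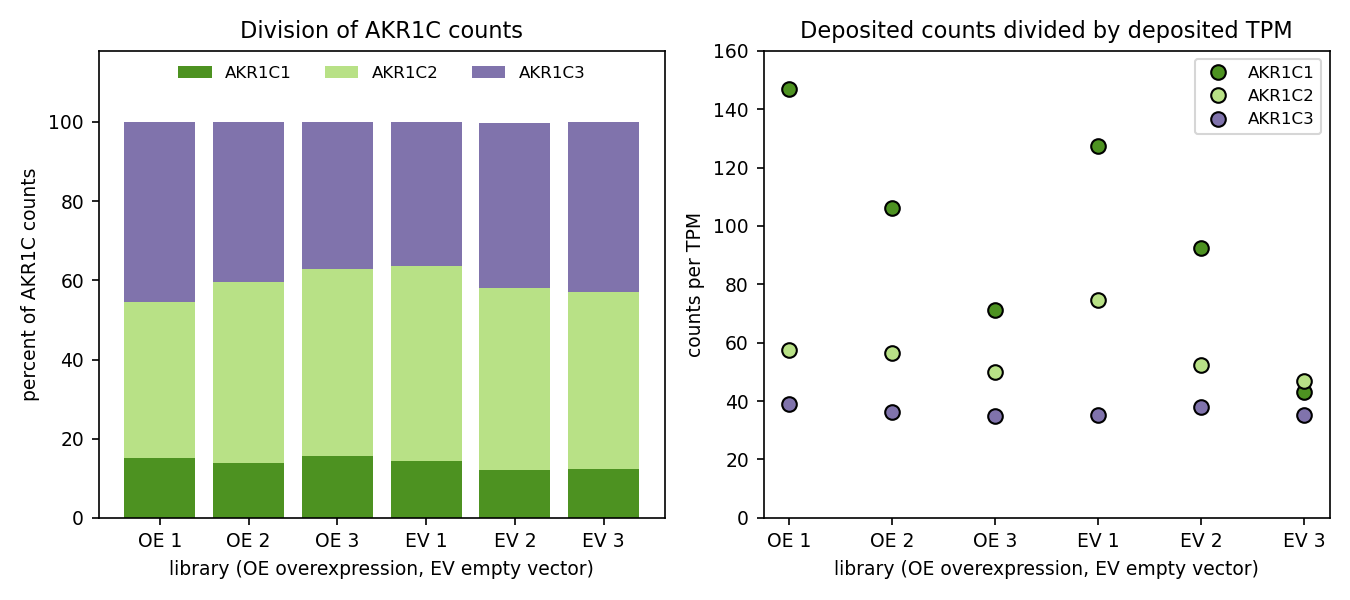
Left, the percent of each library's AKR1C counts in AKR1C1, AKR1C2 and AKR1C3 (AKR1C4 took the rest). Right, deposited counts divided by deposited TPM for the same genes and libraries (OE, overexpression; EV, empty vector); AKR1C1 ranges from 42.96 to 147 counts per TPM while AKR1C3 stays between 34.9 and 39.0.

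The AKR1C promoters are shown because AKR1C1, AKR1C2 and AKR1C3 moved together and AKR1C4 was hardly detected. RefSeq promoter windows (GRCh38.p14, 250 bases before to 50 bases after a start) were found for 7 of the 9 genes, and AKR1B10 and AKR1B15 had none. The windows below are chr10:4963165-4963464 on the plus strand for AKR1C1, chr10:5003808-5004107 on the minus strand for AKR1C2, chr10:5048531-5048830 on the plus strand for AKR1C3 and chr10:5196587-5196886 on the plus strand for AKR1C4. They are written 5′ to 3′ along the gene, and capitals mark a CCAAT box, which reads ATTGG where it lies on the other strand.
AKR1C1: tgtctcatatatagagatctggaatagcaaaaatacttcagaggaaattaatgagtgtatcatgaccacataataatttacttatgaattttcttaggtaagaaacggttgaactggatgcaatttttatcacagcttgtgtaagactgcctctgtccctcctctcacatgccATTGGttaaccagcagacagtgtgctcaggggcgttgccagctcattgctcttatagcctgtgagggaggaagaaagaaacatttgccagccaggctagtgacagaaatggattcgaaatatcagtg
AKR1C2: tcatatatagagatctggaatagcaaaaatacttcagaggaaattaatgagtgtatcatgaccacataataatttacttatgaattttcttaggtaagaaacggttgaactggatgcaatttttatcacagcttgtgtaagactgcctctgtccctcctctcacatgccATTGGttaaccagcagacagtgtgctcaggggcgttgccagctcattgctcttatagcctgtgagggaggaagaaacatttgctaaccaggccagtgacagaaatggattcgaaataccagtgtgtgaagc
AKR1C3: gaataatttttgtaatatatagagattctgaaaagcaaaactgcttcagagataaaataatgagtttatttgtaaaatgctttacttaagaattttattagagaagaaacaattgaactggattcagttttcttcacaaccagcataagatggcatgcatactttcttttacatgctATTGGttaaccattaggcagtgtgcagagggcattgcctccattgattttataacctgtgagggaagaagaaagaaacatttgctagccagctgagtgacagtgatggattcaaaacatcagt
AKR1C4: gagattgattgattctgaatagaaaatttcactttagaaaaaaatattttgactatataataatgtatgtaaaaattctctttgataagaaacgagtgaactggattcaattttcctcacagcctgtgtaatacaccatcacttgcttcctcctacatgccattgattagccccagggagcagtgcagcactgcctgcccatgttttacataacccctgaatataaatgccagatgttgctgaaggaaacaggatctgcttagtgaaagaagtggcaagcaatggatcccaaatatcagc

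These windows are near copies of each other for AKR1C1 and AKR1C2, which were 98.6% identical over 292 aligned bases. AKR1C1 and AKR1C3 were 80.9% identical, and AKR1C1 and AKR1C4 were 78.7% identical. CCAAT, searched on both strands, stood once in the windows of AKR1C1, AKR1C2 and AKR1C3, with its first letter at position -77, -81 and -73 from the start, and did not occur in that of AKR1C4. AKR1C3 has a second RefSeq start, whose window (not shown) held it at -86, and a window of AKR1B1 held it at -98. Of 35116 promoter windows of this length, 34.6% held it. TGACNNNGC, the core of the antioxidant response element that NRF2 binds, was in 13.3% of all windows and in none of the AKR1C windows. The AP-1 site TGANTCA, in 7.71% of all windows, was in none of the AKR1C windows either. Each of the AKR7A2 windows held TGACNNNGC 3 times. A match of letters is a description and not a site shown to be bound.

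The other tested genes of the family, which handle aldehydes and sugars, did not pass the test. AKR1B1 is aldose reductase, which turns glucose to sorbitol. Its CPM were 85.9, 78.0 and 82.7 in overexpression libraries against 62.2, 76.4 and 76.0 in empty vector libraries. The groups did not overlap, but overexpression library 2 and empty vector library 2 were close and empty vector library 1 was low. The mean was 82.2 ± 3.96 CPM in overexpression cells and 71.5 ± 8.10 CPM in empty vector cells (SD, n = 3 each). The log2 fold change was 0.20 ± 0.086 (SE; 95% interval 0.0024 to 0.40), with an unadjusted edgeR p of 0.0479 and an adjusted p of 0.207.

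AKR1A1 is the aldehyde reductase found in most tissues. It stood at 230, 221 and 217 CPM in overexpression libraries against 179, 205 and 216 CPM in empty vector libraries, so that the groups all but touched and empty vector library 1 was again the lowest. Its log2 fold change was 0.16 ± 0.070 (SE; 95% interval -0.0062 to 0.32), with an edgeR adjusted p of 0.226. AKR7A2 reduces succinic semialdehyde and the toxic aldehyde of aflatoxin. It stood at 54.8, 46.1 and 48.6 CPM in overexpression libraries against 38.4, 50.8 and 51.6 CPM in empty vector libraries. These groups overlapped, and the log2 fold change of AKR7A2 was 0.09 ± 0.125 (SE; 95% interval -0.21 to 0.38) with an edgeR adjusted p of 0.721. Without empty vector library 1 the sign of AKR7A2 changed, to a log2 fold change of -0.04. The upper ends of these intervals lie below the lower end for AKR1C2, at 0.49 on the log2 scale. The differences between genes were not tested.

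AKR1B10, which reduces retinal and lipid aldehydes and is high in several carcinomas, had 2, 4 and 8 counts in overexpression libraries and 2, 0 and 2 counts in empty vector libraries. The sums were 14 counts in overexpression cells (95% Poisson interval 7.65 to 23.5) and 4 counts in empty vector cells (1.09 to 10.2). These intervals overlap, which is not a test of the difference, and 8 of the 14 counts came from overexpression library 3. AKR1B15, its close copy, had 0, 3 and 0 counts in overexpression libraries and 0 counts in all 3 empty vector libraries. Neither gene had enough reads to be tested.

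**Figure D4:**
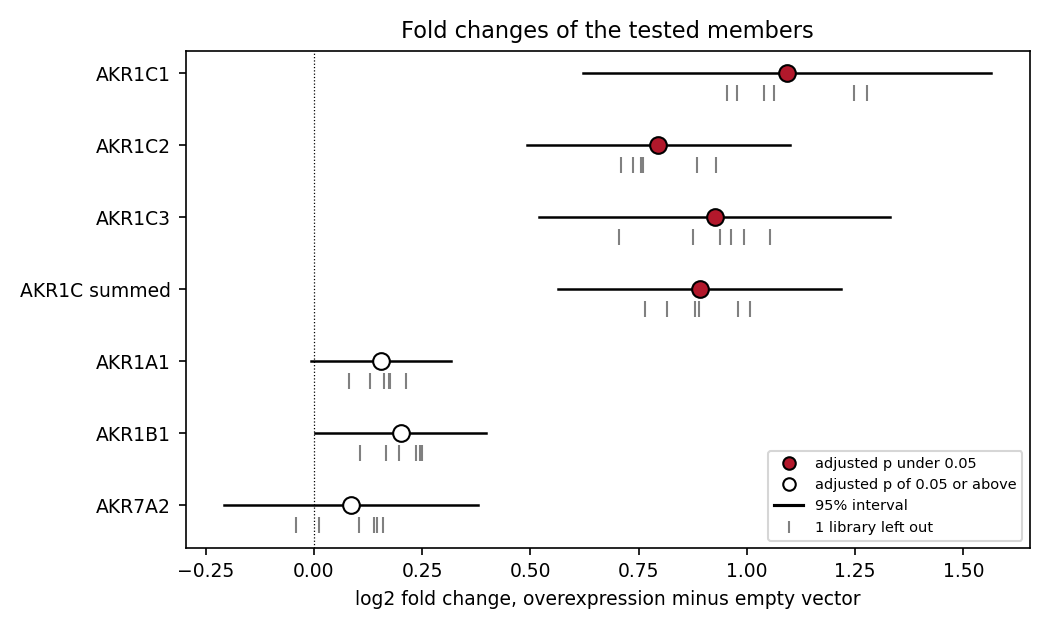
Log2 fold changes (overexpression minus empty vector) of the 6 tested genes and of the AKR1C sum, with 95% intervals; filled points have an adjusted p below 0.05, and grey ticks are the fits with 1 library left out. The AKR1C intervals lie between 0.49 and 1.56, and those of AKR1A1, AKR1B1 and AKR7A2 between -0.21 and 0.40.

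Steroid enzymes outside the family gave no call in the same fit. Of 35 genes of androgen and steroid metabolism, 19 were tested and edgeR called 0 higher and 0 lower, with 3 at an unadjusted p below 0.05, and DESeq2 called 1. Over all tested genes edgeR called 5.60%, and 3200 of 13543 had an unadjusted p below 0.05. The list was not tested against these shares, and its median log2 fold change was 0.04. HSD17B10, a mitochondrial enzyme that oxidises steroids and branched-chain fatty acids, averaged 122.9 ± 5.65 CPM in overexpression cells and 103.4 ± 7.95 CPM in empty vector cells (SD, n = 3 each), with a log2 fold change of 0.25 and an edgeR adjusted p of 0.0692. SRD5A1, which makes dihydrotestosterone, the substrate of AKR1C2, averaged 127 ± 2.90 CPM in overexpression cells and 132.5 ± 1.16 CPM in empty vector cells (log2 fold change -0.06, edgeR adjusted p 0.446). HSD17B8 averaged 44.8 ± 3.63 CPM in overexpression cells and 43.5 ± 7.17 CPM in empty vector cells. A further 11 genes had 0 counts in all 6 libraries, among them UGT2B15 and UGT2B17, which inactivate androgens by adding glucuronic acid, and HSD3B1, which acts before AKR1C3 in androgen synthesis.

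The remaining aldo-keto reductase genes were not called either. Of 7 such genes, 5 were tested, 0 were called in either direction by edgeR or DESeq2 and 1 had an unadjusted p below 0.05. The edgeR share over all tested genes was 5.60% called. KCNAB2, a potassium channel subunit of aldo-keto reductase fold, averaged 119.4 ± 1.82 CPM in overexpression cells and 108.4 ± 3.70 CPM in empty vector cells (SD, n = 3 each), with a log2 fold change of 0.14 and an edgeR adjusted p of 0.122. AKR7A3, the nearest relative of AKR7A2, averaged 2.94 ± 0.148 CPM in overexpression cells and 3.58 ± 0.499 CPM in empty vector cells (log2 fold change -0.28, edgeR adjusted p 0.287). AKR1D1, which reduces steroids for bile acid synthesis, had 0 counts in all 6 libraries.

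Among enzymes with similar substrates, a few rose. Of 23 genes of carbonyl, aldehyde and polyol metabolism, 20 were tested, 2 rose and 0 fell, and the median log2 fold change was 0.05. Over all tested genes 3.57% were called higher and 2.03% lower, and no list here was tested against these shares. ALDH3A1, an aldehyde dehydrogenase that clears lipid aldehydes, had 119, 136 and 123 CPM in overexpression libraries against 67.4, 87.1 and 73.2 CPM in empty vector libraries. The groups did not overlap, and ALDH3A1 rose with a log2 fold change of 0.73 ± 0.1002 (SE) and an edgeR adjusted p of 0.0126. PTGR1, which inactivates leukotrienes and reduces reactive alkenals, rose by 0.28 ± 0.056 (SE) on the log2 scale with an edgeR adjusted p of 0.0314, and its call held in 1 of the 6 fits that left out a library, the one without empty vector library 3 (adjusted p 0.0229). PTGR1 was also not called in the 3 fits on TPM (adjusted p up to 0.0952) or with the replicate block (0.0800). Among 10 retinoid enzymes 8 were tested, and 1 rose and 0 fell. That gene was ALDH1A2, which makes retinoic acid and was read at a low level, with 53, 38 and 48 counts in overexpression libraries and 16, 23 and 18 counts in empty vector libraries. Its log2 fold change was 1.32 ± 0.253 (SE), with an edgeR adjusted p of 0.0288, and it was called in 0 of the 6 fits that left out a library (adjusted p 0.0565 to 0.102). With the replicate block its adjusted p was 0.0846, and in the fit on unfiltered TPM its log2 fold change was 0.76 (adjusted p 0.243).

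NRF2 target genes other than aldo-keto reductases changed in part. Of 26 listed, 25 were tested, 6 rose and 1 fell, and 13 had an unadjusted p below 0.05. Over all tested genes 3.57% were called higher and 2.03% lower, and 3200 of 13543 had an unadjusted p below 0.05. The list was not tested against these shares, and its median log2 fold change was 0.10. NQO1, a quinone reductase, averaged 235.8 ± 9.40 CPM in overexpression cells and 189.8 ± 3.61 CPM in empty vector cells (SD, n = 3 each), and rose by 0.31 on the log2 scale with an edgeR adjusted p of 0.0125. The call of NQO1 was lost without overexpression library 3 (adjusted p 0.0515), with the replicate block (0.0521) and in the 3 fits on TPM (up to 0.111). PIR, an iron-binding nuclear protein, rose by 0.36 on the log2 scale with an edgeR adjusted p of 0.0177. Its call was lost without overexpression library 1 (adjusted p 0.0720) or 3 (0.0714) or empty vector library 2 (0.0641), and with the replicate block (0.0560). ALDH3A1, described above, is on this list too. The gene that fell was ABCC3, an export pump, with a log2 fold change of -0.37 and an edgeR adjusted p of 0.0186. Widely used NRF2 targets were not called, with log2 fold changes of 0.07 for HMOX1, -0.20 for GCLM and -0.01 for TXNRD1 and edgeR adjusted p of 0.611, 0.125 and 0.944. Between 2 and 9 genes of the list were called under other settings, with 9 by DESeq2, 5 on TPM, 2 with a replicate block and 2 to 6 with a library left out.

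The 9 regulators of the NRF2 pathway gave 0 calls by edgeR and 1 by DESeq2, with 1 at an unadjusted p below 0.05 in edgeR and a median log2 fold change of -0.12. The edgeR share over all tested genes was 5.60% called, with 3200 of 13543 at an unadjusted p below 0.05. NFE2L2, the gene of NRF2, averaged 58.0 ± 16.9 CPM in overexpression cells and 50.5 ± 15.8 CPM in empty vector cells (SD, n = 3 each; log2 fold change 0.20, edgeR adjusted p 0.744). SQSTM1, which draws the NRF2 inhibitor KEAP1 into autophagy, had a log2 fold change of 0.07 with an edgeR adjusted p of 0.537, and MAFK, a DNA-binding partner of NRF2, one of -0.13 with an edgeR adjusted p of 0.234. BACH1, which represses NRF2 targets, averaged 101.6 ± 2.61 CPM in overexpression cells and 119 ± 7.83 CPM in empty vector cells, with a log2 fold change of -0.23 and an edgeR adjusted p of 0.0603.

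AKR1C3 also uses prostaglandins. Of 11 prostaglandin enzymes 7 were tested, and 1 rose and 0 fell, with a median log2 fold change of 0.13. Over all tested genes 3.57% were called higher and 2.03% lower. PTGS1, the cyclooxygenase that feeds prostaglandin synthesis, had 1423, 1415 and 1371 CPM in overexpression libraries against 915, 954 and 907 CPM in empty vector libraries. The groups did not overlap, and PTGS1 rose by 0.60 on the log2 scale with an edgeR adjusted p of 0.0010.

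**Figure D5:**
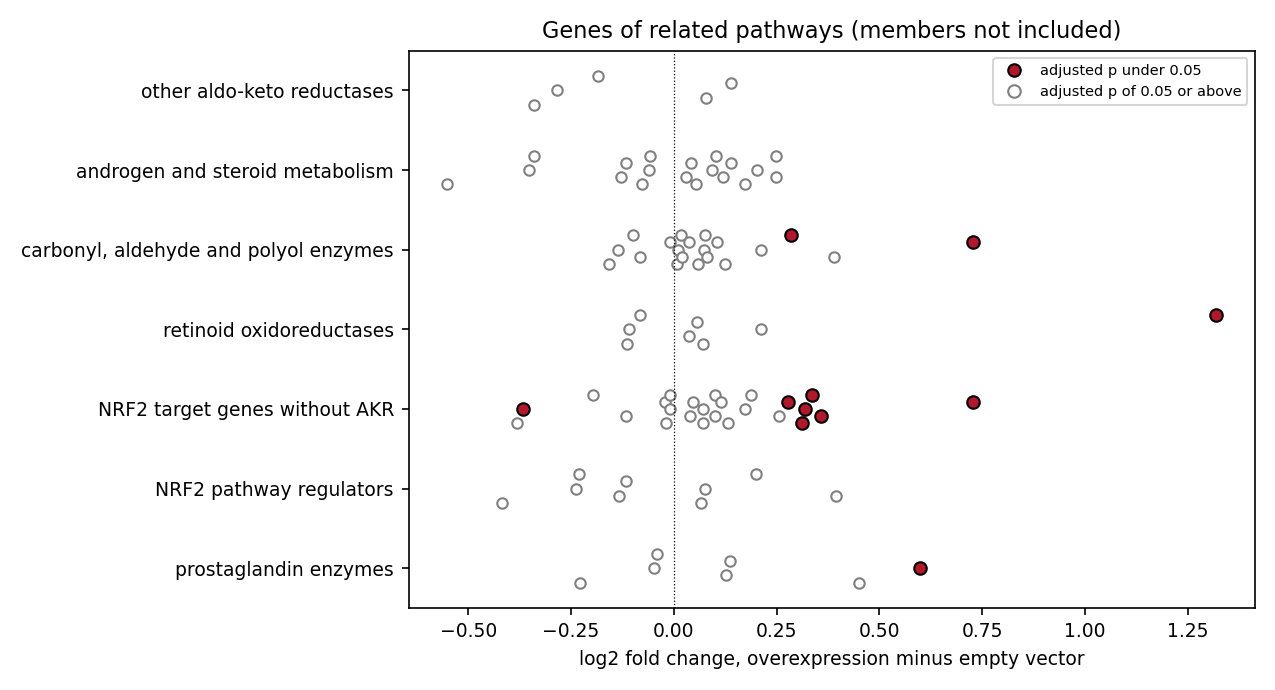
Log2 fold changes (overexpression minus empty vector) of the tested genes of 7 lists related to the family, with 1 point per gene and filled points for an adjusted p below 0.05. The filled points are 6 higher and 1 lower NRF2 targets, 2 carbonyl enzymes (ALDH3A1 is drawn in both lists), 1 retinoid enzyme and 1 prostaglandin enzyme. Androgen and steroid metabolism has 0 among 19 tested, and 5.60% of all tested genes were called.

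Genes whose profile over the 6 libraries was most like that of AKR1C2 and AKR1B1 were found by the root mean square difference of log2 CPM, each gene taken relative to its empty vector mean, among 10200 well-expressed genes. Because these genes were chosen on the same libraries, fold changes close to those of AKR1C2 and AKR1B1 follow from the choice. Their p-values and calls are no separate evidence. For AKR1C2 these were GRAMD2B (0.1199), DUSP9 (0.122) and SEMA6D (0.130), with log2 fold changes of 0.78, 0.77 and 0.76 and edgeR adjusted p of 0.0152, 0.00639 and 0.0583. DUSP9 was called in all 6 fits that left out a library and in the 11 other settings. GRAMD2B was called in 2 of the 6, not without overexpression library 1, 2 or 3 or empty vector library 2 (adjusted p up to 0.0617), and was not called in the 3 fits on TPM (up to 0.0760). SEMA6D, not called by edgeR, was called by DESeq2 and voom and had log2 fold changes from 0.16 to 0.80 over the 11 other settings. For AKR1B1 they were FBXO44 (0.0216), SNX17 (0.0224) and RHBDL1 (0.0252), with log2 fold changes of 0.19, 0.20 and 0.21.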

How the data were processed

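Total RNA was taken up with TRIzol and sequenced as 6 libraries, per the labels' protocols. The tools named in the submitters' processing notes are Trimmomatic 0.36 for trimming, HISAT2 for alignment, featureCounts (Subread 1.5.1) for counting and DESeq, with the genome build GRCh38. The deposited counts are whole numbers with no normalization. The deposited TPM are 1 value per gene and library. Not given in the sources used here are the annotation, the strand setting, the treatment of reads that map to several genes and the tool behind the TPM.

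The fit used R 4.3.3 and edgeR 4.0.16 on counts as deposited: filterByExpr (minimum count 10, minimum total 15), TMM scaling, and a robust quasi-likelihood F test with the group as its only term, adjusted by Benjamini-Hochberg over 13543 genes. Symbols were matched for 20148 of 20263 genes. Alternatives were other scalings, count filters, DESeq2 1.42.0, limma 3.58.1 (voom, and log2 TPM), a replicate block and leaving out each library. On simulated counts for the comparison of overexpression with empty vector (13442 genes), edgeR recovered 54.0% of 50 genes given a 1.5-fold change and 85.4% of 48 given a 2-fold change. It recovered 24% of 50 genes given a 1.3-fold change and 93.9% of 49 given a 4-fold change. In the same run 15 of 13245 unchanged genes were called. Called among the changed genes were 12, 27, 41 and 46 at 1.3-fold, 1.5-fold, 2-fold and 4-fold. The members, lists and alternatives were chosen with earlier results of these data known. Of each list the text names up to 4 called genes with the smallest p or, with none called, the most abundant. Other list genes were named after their values were seen. The genes most like AKR1C2 and AKR1B1 were taken among genes whose mean log2 CPM was 3 or more. Some genes of the lists are not reported here.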

Additional observations from a re-analysis of the deposited data

How the results depend on the processing

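The AKR1C sum (log2 fold change 0.89) was called in each of the 11 settings that kept all libraries, with log2 fold changes of 0.80 to 0.89, and so was AKR1C2. AKR1C1 and AKR1C3 were called in 8 of these 11 and lost their call in the 3 fits on TPM, where AKR1C1 had adjusted p up to 0.385 and AKR1C3 up to 0.0704. The number of the 9 genes called was 3, or 1 with log2(TPM + 0.1), log2(TPM + 1) and log2(TPM + 0.1) without a filter, and 0 to 3 with a library left out, where the AKR1C sum ranged from 0.77 to 1.01. Over all genes, 759 were called (484 higher, 275 lower). DESeq2 called 1319 (790 higher, 529 lower), log2(TPM + 0.1) 225 (102 higher, 123 lower), log2(TPM + 1) 236 (106 higher, 130 lower) and log2(TPM + 0.1) without a filter 176 (81 higher, 95 lower). Leaving out a library gave 193 to 458 calls (131 to 287 higher, 62 to 171 lower), with fewer libraries in each fit. For the rest the cause was not tested. With the replicate number as a block, 232 genes were called (154 higher, 78 lower) and the same count of 3 among the 9 genes. The labels do not pair the libraries: deviations of same-numbered libraries correlated at 0.0247 to 0.0525 and those of other libraries at -0.0657 to 0.0210, and 6 of 6 libraries correlated best with their own number, a hint from the data and not from the design. Signs turned, in genes that were not called in these fits, for SQSTM1 (-0.0208, -0.0207 and -0.0208) and PDGFRB (-0.0629, -0.0594 and -0.0629) in the 3 TPM fits in the above order, for HSD17B8 without overexpression library 2 (-0.0238) or empty vector library 1 (-0.0872), for CDH5 without overexpression library 2 (0.0383), for AKR7A2 without empty vector library 1 (-0.0419) and for VWF without empty vector library 2 (-0.0810). With a library left out, log2 fold changes ranged from -0.0872 to 0.143 for HSD17B8, from -0.146 to 0.0383 for CDH5, from -0.0419 to 0.159 for AKR7A2 and from -0.0810 to 0.914 for VWF. AKR1B10 and AKR1B15 summed had too few counts to pass the filter of the main fit, and no alternative is reported for this sum. Low counts limit AKR1B10, AKR1B15 and AKR1C4, whose differences were not tested in the main fit. The division of counts between AKR1C1 and AKR1C2 rests on an unstated counting rule. ABCC3, HMOX1, GCLM, TXNRD1, SRD5A1, BACH1, NFE2L2 and TP63 were not recomputed singly under these alternatives.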
